A study of Mus musculus with 6 samples.

Results

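The genes described here are a module of 56 mouse genes for the interferon response and antigen presentation, out of 31950 genes measured in liver RNA. Its members were chosen by name as MHC class I and II genes, genes of peptide loading and of the immunoproteasome, and interferon-induced genes. All 56 were found in the table, each on 1 line. The samples compared are 3 livers of WT and 3 of *β-catenin Δ(ex3)/+* mice, each with 1 RNA library. By the sample labels all mice were of strain C57BL/6 and 8 weeks old. *β-catenin Δ(ex3)/+* mice carry 1 allele of *Ctnnb1*, which encodes β-catenin, without its exon 3, the part through which the protein is marked for degradation. By the study's methods the exon was deleted in hepatocytes by an albumin-driven Cre recombinase (*ERT2-Alb-Cre*) switched on with tamoxifen, so other liver cells were not the target of the deletion. Whether the WT mice carried the Cre transgene or received tamoxifen is not given in the sources used here. Since the samples are whole liver, fewer cells of a type and less RNA per cell cannot be told apart for any gene described.

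Interferons signal through receptors and JAK kinases to STAT proteins, which enter the nucleus with IRF factors and switch on antiviral genes. Nucleated cells show peptides to CD8 T cells on MHC class I, made of a heavy chain and the light chain β2-microglobulin, and interferon raises each step of this path, from the immunoproteasome that cuts the peptides to the transporter that loads them. MHC class II is mostly made by antigen-presenting cells, in liver by Kupffer cells, dendritic cells and B cells, while hepatocytes carry little of it at rest.

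The deposited values are FPKM, in which a gene's fragments are divided by transcript length and by library size, and each trio of values is for replicates 1 to 3 in that order. *Glul*, a liver target of β-catenin, had 103, 105 and 102 FPKM in the WT and 626, 633 and 619 FPKM in the *β-catenin Δ(ex3)/+* group. *Axin2*, a general Wnt target, had 0.641, 1.43 and 1.26 FPKM in the WT and 7.03, 5.89 and 6.79 FPKM in the *β-catenin Δ(ex3)/+* group. Neither gene's groups overlapped, and the *β-catenin Δ(ex3)/+* group was higher for both. *Ctnnb1* itself had 25.9, 27.95 and 27.3 FPKM in the WT and 25.4, 25.2 and 25.04 FPKM in the *β-catenin Δ(ex3)/+* group, values per gene from which the loss of exon 3 cannot be read. Hepatocyte markers were high in all 6 livers, with *Alb* at 41343, 43342 and 39618 FPKM in the WT and 24788, 25012 and 24721 FPKM in the *β-catenin Δ(ex3)/+* group.

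The groups also differed in ways that the labels do not name. *Xist*, the RNA of the inactive X chromosome, had 20.3, 22.2 and 21.1 FPKM in the WT and 0.0146, 0 and 0.0128 FPKM in the *β-catenin Δ(ex3)/+* group. *Ddx3y*, on the Y chromosome, had 0.0156, 0 and 0 FPKM in the WT and 5.85, 5.83 and 5.98 FPKM in the *β-catenin Δ(ex3)/+* group. *Eif2s3y*, *Uty* and *Kdm5d*, also Y-linked, were above 0.5 FPKM only in the *β-catenin Δ(ex3)/+* group. Sex, which the labels do not state, and genotype cannot be told apart for any member. Genes known for high levels in the fetal and newborn liver were high in the WT livers, although their labels give the same age. *Afp* had 601, 612 and 610.5 FPKM in the WT and 2.48, 2.38 and 2.81 FPKM in the *β-catenin Δ(ex3)/+* group. *H19* had 2320.4, 2374 and 2364 FPKM in the WT and 0.0107, 0.04803 and 0.0192 FPKM in the *β-catenin Δ(ex3)/+* group. *Igf2*, listed at 0 throughout the *β-catenin Δ(ex3)/+* group, had 836, 803 and 847 FPKM in the WT group, while *Igf2bp3* and *Dlk1* were also higher in each WT liver. The 5 genes summed to 3761, 3792 and 3826 FPKM in the WT and 2.58, 2.57 and 2.85 FPKM in the *β-catenin Δ(ex3)/+* group. What sets the WT livers apart in these genes was not tested, and whatever it is cannot be told apart from genotype in any comparison here.

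Of the 56 members 48 were higher in the *β-catenin Δ(ex3)/+* than in the WT group past both thresholds, an adjusted p under 0.05 by limma and a fold change of at least 2 on the log2(FPKM + 1) scale, which understates the change of genes with low FPKM, against 8.17% of the 13243 genes tested. By limma 0 members were lower past both thresholds, against 4.52% of all genes tested. With unadjusted p-values limma gave 48 higher and 0 lower at 2-fold, and at 2-fold the counts of every other list named here were also the same as with adjusted ones. At any fold change 51 members were higher and 2 lower with an adjusted p under 0.05 (52 and 2 unadjusted, by limma), where 37.4% and 19.6% of all genes were. Every *β-catenin Δ(ex3)/+* liver was above every WT liver for 53 members (43.0% of all genes), every WT liver was above for 2 (22.97%), and the groups overlapped for *Tapbp* alone. The median log2 fold change was 1.71 over the 56 members and 0.14 over all genes tested. Called members differed between the groups by a ratio of means from 2.24 to 24.2, with 30 at 4-fold or more. Between livers of a group the median coefficient of variation of the members was 9.94% in WT and 4.23% in the *β-catenin Δ(ex3)/+* group. The 56 genes together held 0.437%, 0.436% and 0.431% of the summed FPKM of the WT livers and 1.198%, 1.22% and 1.201% of that of the *β-catenin Δ(ex3)/+* livers. All but *Ciita* reached the mean of 0.5 FPKM required for testing, and *Nlrc5*, *Mx1* and *Ifi44* reached it only through the *β-catenin Δ(ex3)/+* livers and *H2-Q2*, 1 of the 2 lower at any fold change, only through the WT livers. Of the 52 members with at least 0.5 FPKM on average in WT livers, 45 were higher past both thresholds. SE stands for the standard error of a log2 fold change in the limma fit. Unless another pseudocount is named, log2 fold changes and statements of being under 2-fold are on the log2(FPKM + 1) scale. For a gene on its own, an exact permutation test (two-sided) of 3 livers against 3 cannot go below p = 0.1.

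**Figure D1:**
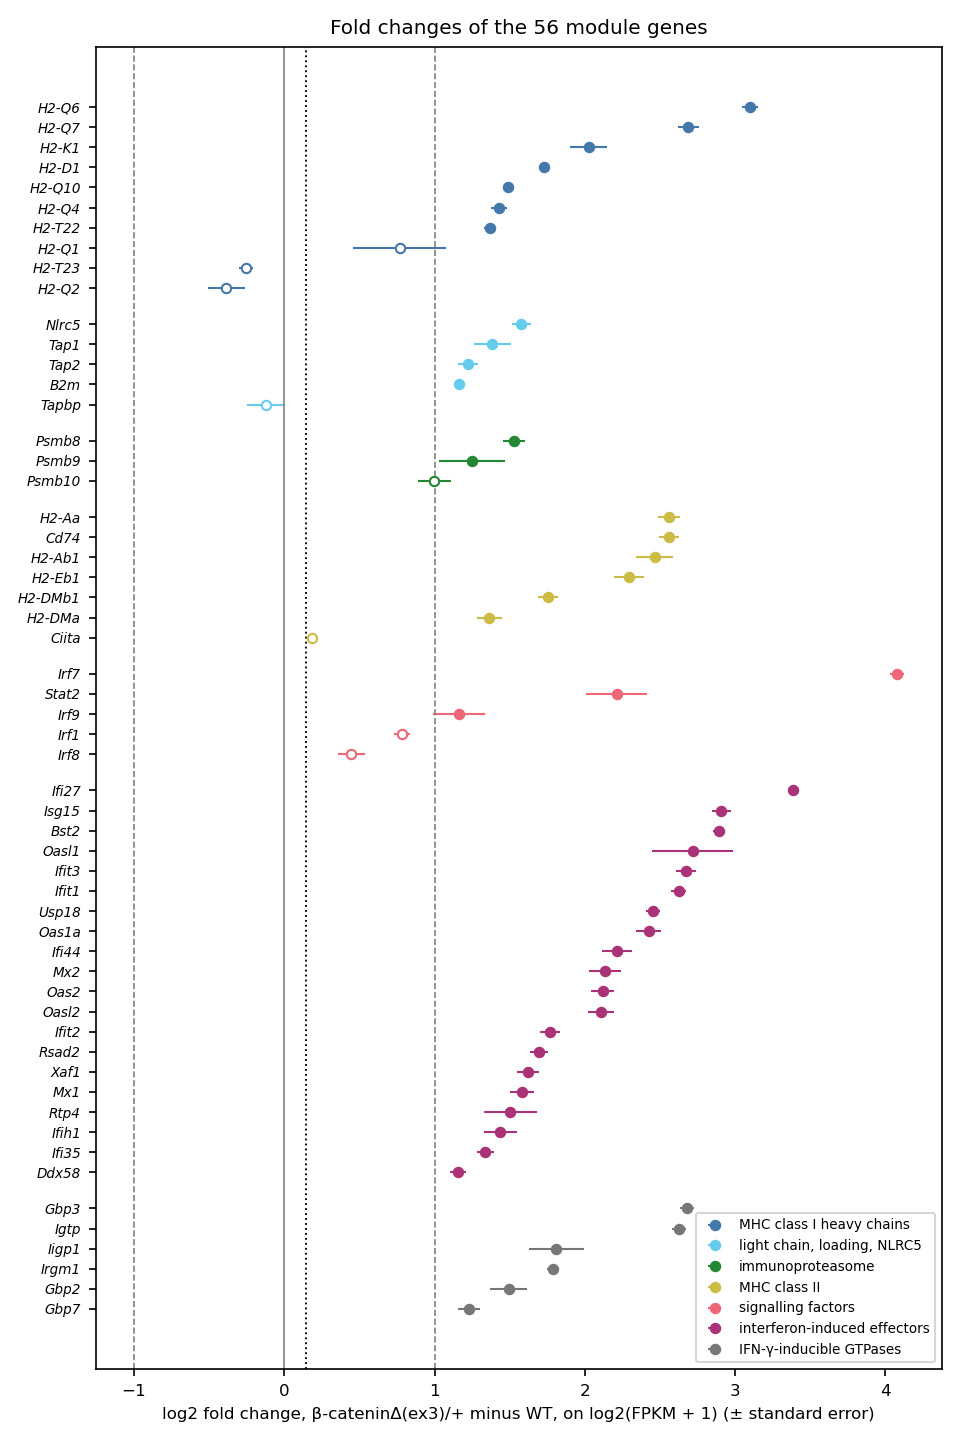
Log2 fold change of each of the 56 members between 3 *β-catenin Δ(ex3)/+* and 3 WT livers, on the log2(FPKM + 1) scale, by role. Filled points passed both thresholds, open points did not, bars are standard errors of the limma fit (*Ciita* was not tested), dashed lines mark 2-fold and the dotted line the median of all genes tested, 0.14. *Irf7* lies farthest to the right at 4.08, and *H2-T23*, *H2-Q2* and *Tapbp* lie left of 0.

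Scaling by median ratios shifted the all-gene median by -0.14 on the log2 scale, and quantile normalization shifted it by -0.16. The median of the 55 members tested was 1.73 as deposited, where that of all genes was 0.14, then 1.56 against 0.01 and 1.54 against -0.02, with 46 and 45 members higher past both thresholds. Among all genes the calls were 1082 higher and 598 lower as deposited (64.4% higher), 851 and 751 with median ratios (53.1%) and 797 and 812 with quantiles (49.5%).

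Interferon genes themselves were scarcely measured. Of 11 listed ligands 3 had a line in the table, and none of the 3 had enough FPKM to be tested. *Ifng*, the type II interferon made by T and NK cells, was listed at 0 in each WT liver and had 0.309, 0.137 and 0.174 FPKM in the *β-catenin Δ(ex3)/+* group. *Ifnz* was at most 0.0230 FPKM in any liver and *Ifnk* was listed at 0 throughout. No line for *Ifnb1* was found, nor for the other type I and the type III interferon genes of the list.

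*Ifnar1*, a chain of the type I receptor, had 5.35, 2.95 and 5.53 FPKM in the WT and 4.55, 4.43 and 4.76 FPKM in the *β-catenin Δ(ex3)/+* group. *Ifnar2*, its partner, had 16.7, 20.9 and 18.3 FPKM in the WT and 16.8, 18.9 and 18.6 FPKM in the *β-catenin Δ(ex3)/+* group. The groups overlapped for both, and also for *Ifngr1* and *Jak2*. These receptor genes and kinase, and *Ifngr2*, were named after their values were seen. *Ifngr2*, a chain of the type II receptor, had 6.404, 6.44 and 6.39 FPKM in the WT and 4.08, 4.76 and 4.88 FPKM in the *β-catenin Δ(ex3)/+* group, a log2 fold change of -0.41 (SE 0.0689, adjusted p = 0.00307 by limma) that was under 2-fold. *Socs3*, an inhibitor of JAK signalling, had 1.73, 1.91 and 1.99 FPKM in the WT and 6.32, 7.11 and 7.73 FPKM in the *β-catenin Δ(ex3)/+* group. Every *β-catenin Δ(ex3)/+* liver was above every WT liver for *Socs3*, with a log2 fold change of 1.48 (SE 0.0816, adjusted p = 2.52e-05 by limma).

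The signalling factors among the members were led by *Irf7* (ENSMUSG00000025498, chr7:141262706-141266481), which amplifies the type I interferon response. *Irf7* had 2.22, 2.03 and 2.24 FPKM in the WT and 52.1, 53.1 and 51.7 FPKM in the *β-catenin Δ(ex3)/+* group, a ratio of means of 24.2 and the largest of the 56. Its log2 fold change was 4.08 (SE 0.0458, adjusted p = 4.43e-08 by limma), and 69 of the 13243 genes tested, itself included, had one at least as large. *Stat2* and *Irf9* encode subunits of the interferon-activated factor ISGF3. *Stat2* had 2.3995, 2.54 and 2.96 FPKM in the WT and 17.7, 11.2 and 19.7 FPKM in the *β-catenin Δ(ex3)/+* group. *Irf9* had 3.16, 3.27 and 3.004 FPKM in the WT and 9.63, 9.75 and 5.998 FPKM in the *β-catenin Δ(ex3)/+* group. Their *β-catenin Δ(ex3)/+* livers were uneven, with replicate 2 lowest for *Stat2* and replicate 3 lowest for *Irf9*, yet all stood above the WT livers, with log2 fold changes of 2.21 (SE 0.203, adjusted p = 0.000231 by limma) and 1.16 (SE 0.174, adjusted p = 0.00194 by limma). That of *Irf9* was under 2-fold after quantile normalization (0.95). *Irf9* shares 2.28% of its exon bases with *Rnf31*, which lies on the same strand, and fragments there can be split between both. *Irf1*, a factor that class I promoters respond to, had 9.25, 10.1 and 8.94 FPKM in the WT and 16.97, 16.8 and 17.1 FPKM in the *β-catenin Δ(ex3)/+* group. *Irf8*, a factor of myeloid cells and B cells, had 2.29, 1.65 and 1.95 FPKM in the WT and 3.22, 2.93 and 2.93 FPKM in the *β-catenin Δ(ex3)/+* group. Both were higher in every liver of the *β-catenin Δ(ex3)/+* group but under 2-fold, at 0.78 (SE 0.0533, adjusted p = 6.28e-05 by limma) and 0.45 (SE 0.09198, adjusted p = 0.00742 by limma).

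All 20 interferon-induced effectors were higher past both thresholds, with a median log2 fold change of 2.13, and their summed level was 131, 131 and 129.95 FPKM in the WT and 951, 963 and 935 FPKM in the *β-catenin Δ(ex3)/+* group, a ratio of 7.27. *Bst2* (ENSMUSG00000046718, chr8:71534255-71537456), the most abundant, encodes tetherin, which holds budding viruses at the cell surface. *Bst2* had 71.6, 67.7 and 73.3 FPKM in the WT and 526, 545 and 528 FPKM in the *β-catenin Δ(ex3)/+* group. *Ifi27*, a small interferon-induced protein of mitochondria and nuclear envelope, had 11.1, 11.2 and 10.8 FPKM in the WT and 124, 126 and 124 FPKM in the *β-catenin Δ(ex3)/+* group. *Isg15*, a ubiquitin-like protein that is joined to other proteins, had 11.2, 11.3 and 10.04 FPKM in the WT and 92.99, 86.5 and 83.9 FPKM in the *β-catenin Δ(ex3)/+* group. These 3 genes had the largest log2 fold changes of the effectors, 3.39 (SE 0.0338, adjusted p = 3.42e-08 by limma) for *Ifi27*, 2.91 (SE 0.0625, adjusted p = 4.81e-07 by limma) for *Isg15* and 2.89 (SE 0.0387, adjusted p = 7.44e-08 by limma) for *Bst2*. *Usp18*, the protease that removes ISG15 and dampens the type I receptor, had 4.098, 3.99 and 4.32 FPKM in the WT and 27.7, 27.5 and 26.4 FPKM in the *β-catenin Δ(ex3)/+* group. *Rtp4* had 2.795, 3.77 and 2.22 FPKM in the WT and 10.3, 8.32 and 11.6 FPKM in the *β-catenin Δ(ex3)/+* group. *Ifi35* had 10.99, 12.2 and 11.01 FPKM in the WT and 29.7, 31.7 and 29.7 FPKM in the *β-catenin Δ(ex3)/+* group. For all 3 the lowest liver of the *β-catenin Δ(ex3)/+* group lay above the highest WT liver, with log2 fold changes of 2.46, 1.503 and 1.34. *Rtp4* shares 13.9% of its exon bases with *Gm45338* on the same strand.

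The IFIT proteins bind foreign RNA by its ends. *Ifit3* had 5.36, 5.92 and 4.86 FPKM in the WT and 39.3, 39.2 and 40.3 FPKM in the *β-catenin Δ(ex3)/+* group. *Ifit1* had 0.817, 0.908 and 0.826 FPKM in the WT and 10.5, 10.1 and 10.6 FPKM in the *β-catenin Δ(ex3)/+* group. *Ifit2* had 1.22, 1.54 and 1.28 FPKM in the WT and 6.88, 7.19 and 6.89 FPKM in the *β-catenin Δ(ex3)/+* group. Each WT liver was under each *β-catenin Δ(ex3)/+* liver for all 3, and the log2 fold changes were 2.67, 2.62 and 1.77. The oligoadenylate synthetases, which start RNA decay through RNase L, and their OAS-like relatives were also higher. *Oas1a* had 2.55, 2.33 and 2.38 FPKM in the WT and 18.1, 15.4 and 18.8 FPKM in the *β-catenin Δ(ex3)/+* group. *Oas2* had 0.934, 0.676 and 0.964 FPKM in the WT and 6.99, 7.15 and 7.01 FPKM in the *β-catenin Δ(ex3)/+* group. Both were higher in every liver of the *β-catenin Δ(ex3)/+* group (2.43 and 2.12 on the log2 scale). *Oasl2* had 1.03, 1.36 and 0.945 FPKM in the WT and 8.09, 8.43 and 7.74 FPKM in the *β-catenin Δ(ex3)/+* group. *Oasl1*, which holds back translation of *Irf7*, had 1.03, 0.901 and 0.893 FPKM in the WT and 15.05, 14.9 and 7.17 FPKM in the *β-catenin Δ(ex3)/+* group. Replicate 3 of the *β-catenin Δ(ex3)/+* livers was the lowest for *Oasl1*, where its coefficient of variation of 36.4% was the highest of the effectors within that group, and the log2 fold changes of the OAS-like genes were 2.11 and 2.72. *Ifih1* encodes the cytosolic RNA sensor MDA5 and had 1.49, 0.958 and 0.941 FPKM in the WT and 4.902, 4.81 and 4.498 FPKM in the *β-catenin Δ(ex3)/+* group. *Ddx58* encodes RIG-I, a sensor of RNA ends, and had 2.67, 2.79 and 2.56 FPKM in the WT and 6.92, 7.33 and 7.298 FPKM in the *β-catenin Δ(ex3)/+* group. Both were higher in every liver of the *β-catenin Δ(ex3)/+* group, with log2 fold changes of 1.44 (SE 0.1102, adjusted p = 0.000104 by limma) and 1.16 (SE 0.0525, adjusted p = 1.14e-05 by limma), but that of *Ddx58* fell just under 2-fold with either scaling (0.998 and 0.96).

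The Mx genes belong to a family of antiviral GTPases, of which only transcript levels were measured here. *Mx1* had 0.164, 0.338 and 0.289 FPKM in the WT and 2.92, 2.59 and 2.83 FPKM in the *β-catenin Δ(ex3)/+* group. *Mx2* had 0.632, 0.754 and 0.363 FPKM in the WT and 6.02, 6.19 and 5.52 FPKM in the *β-catenin Δ(ex3)/+* group. *Ifi44* had 0.108, 0.238 and 0.372 FPKM in the WT and 4.53, 5.19 and 4.48 FPKM in the *β-catenin Δ(ex3)/+* group. These genes were near the lower end of what was measured in WT livers, and had log2 fold changes of 1.58, 2.13 and 2.21. *Rsad2*, the radical SAM enzyme viperin, had 0.761, 0.932 and 0.801 FPKM in the WT and 4.998, 4.77 and 4.99 FPKM in the *β-catenin Δ(ex3)/+* group. *Xaf1*, a partner of the apoptosis inhibitor XIAP, had 0.756, 0.972 and 0.7903 FPKM in the WT and 4.76, 4.86 and 4.34 FPKM in the *β-catenin Δ(ex3)/+* group. Neither gene's groups overlapped, and the log2 fold changes were 1.69 and 1.62.

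**Figure D2:**
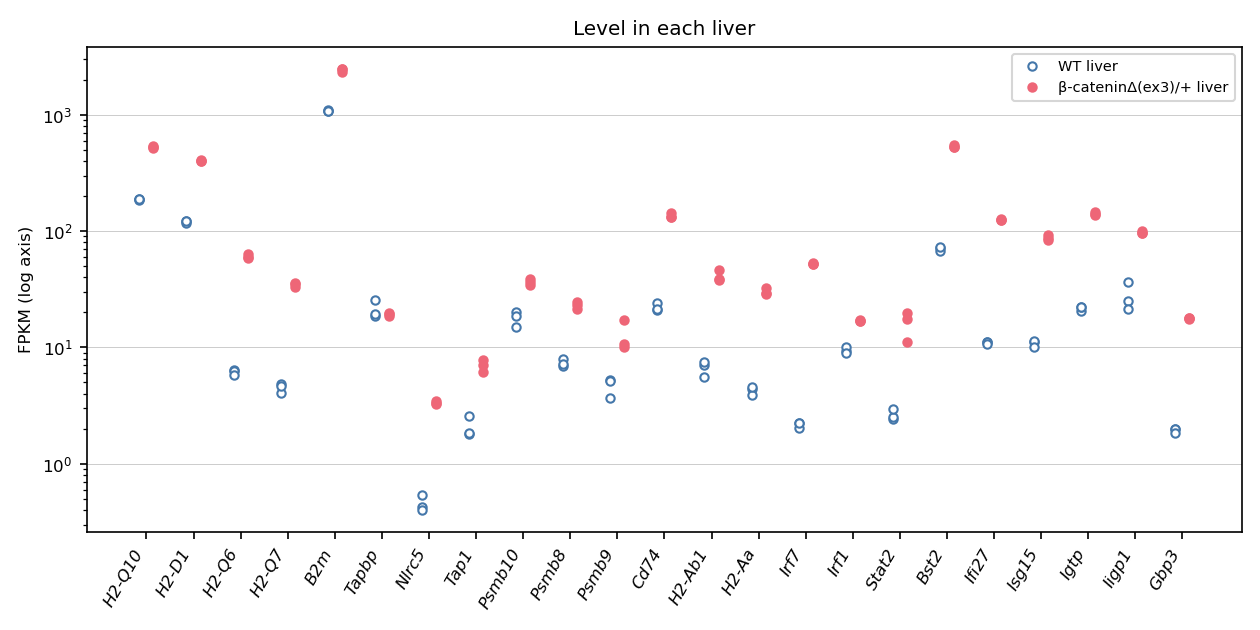
FPKM of each liver, on a log axis, for the 2 most abundant members of each role and the 2 of each with the largest log2 fold change. Open points are WT and filled points *β-catenin Δ(ex3)/+* livers, 3 each; the groups overlap only for *Tapbp*, and *B2m* is highest at 1077 and 2416 FPKM on average.

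The 6 interferon-γ-inducible GTPases, of families that defend against pathogens inside cells, were all higher past both thresholds, with a median log2 fold change of 1.80. *Igtp* (ENSMUSG00000078853, chr11:58199556-58207591), the most abundant, had 20.7, 22.4 and 22.4 FPKM in the WT and 139, 144 and 137 FPKM in the *β-catenin Δ(ex3)/+* group. *Iigp1* had 36.7, 25.1 and 21.6 FPKM in the WT and 97.1, 99.6 and 96.01 FPKM in the *β-catenin Δ(ex3)/+* group. *Irgm1*, which keeps the other GTPases in check, had 6.7999, 6.54 and 6.598 FPKM in the WT and 25.6, 25.7 and 24.9 FPKM in the *β-catenin Δ(ex3)/+* group. WT replicate 1 was the highest of its group for *Iigp1* and still lay under the lowest *β-catenin Δ(ex3)/+* liver; the groups of *Igtp* and *Irgm1* lay apart too. Log2 fold changes were 2.63 for *Igtp*, 1.81 for *Iigp1* and 1.79 for *Irgm1*. Of the guanylate-binding proteins *Gbp3* had 1.99, 1.99 and 1.84 FPKM in the WT and 18.02, 17.6 and 17.9 FPKM in the *β-catenin Δ(ex3)/+* group. *Gbp2* had 4.87, 4.75 and 3.41 FPKM in the WT and 14.99, 12.9 and 13.9 FPKM in the *β-catenin Δ(ex3)/+* group. *Gbp7* had 1.83, 2.102 and 1.74 FPKM in the WT and 5.801, 6.101 and 5.43 FPKM in the *β-catenin Δ(ex3)/+* group. The largest change of the 6 was that of *Gbp3*, at 2.68 (SE 0.0464, adjusted p = 2e-07 by limma), and the smallest that of *Gbp7*, at 1.23 (SE 0.0721, adjusted p = 3.32e-05 by limma), with 1.49 for *Gbp2* and each *β-catenin Δ(ex3)/+* liver above each WT liver for all 3. *Gbp7* shares 11.4% of its exon bases with the pseudogene *Gm43802*, and *Igtp* 8.01% with *Irgm2*.

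MHC class I heavy chains were higher for 7 of 10 members, with a median log2 fold change of 1.46, and their summed level was 558, 539.9 and 536 FPKM in the WT and 1526, 1517 and 1513 FPKM in the *β-catenin Δ(ex3)/+* group. *H2-K1* (ENSMUSG00000061232, chr17:33996017-34000347) and *H2-D1* (ENSMUSG00000073411, chr17:35262730-35267499) encode the classical molecules that show peptides to CD8 T cells. *H2-K1* had 78.6, 80.5 and 58.1 FPKM in the WT and 301, 290.4 and 293 FPKM in the *β-catenin Δ(ex3)/+* group. *H2-D1* had 123, 117 and 122 FPKM in the WT and 408, 398 and 401 FPKM in the *β-catenin Δ(ex3)/+* group. Each *β-catenin Δ(ex3)/+* liver was above each WT liver, and the log2 fold changes were 2.03 (SE 0.125, adjusted p = 4.22e-05 by limma) and 1.73 (SE 0.0301, adjusted p = 2.03e-07 by limma). *H2-Q10*, a class Ib gene whose product liver secretes, was the most abundant heavy chain and had 189, 185 and 189 FPKM in the WT and 518, 537 and 527 FPKM in the *β-catenin Δ(ex3)/+* group, a log2 fold change of 1.49 (SE 0.0268, adjusted p = 2.31e-07 by limma). *H2-Q6* had 6.45, 6.305 and 5.82 FPKM in the WT and 63.8, 59.8 and 58.3 FPKM in the *β-catenin Δ(ex3)/+* group. *H2-Q7*, a gene of the Qa-2 antigen, had 4.86, 4.02 and 4.66 FPKM in the WT and 35.4, 33.1 and 35.03 FPKM in the *β-catenin Δ(ex3)/+* group. These 2 neighbours changed most among the heavy chains, with log2 fold changes of 3.10 and 2.69. *H2-Q4* had 15.3, 14.7 and 15.7 FPKM in the WT and 40.1, 43.6 and 44.7 FPKM in the *β-catenin Δ(ex3)/+* group. *H2-T22*, a ligand of some γδ T cells, had 20.8, 20.95 and 21.8 FPKM in the WT and 56.7, 55.1 and 56.7 FPKM in the *β-catenin Δ(ex3)/+* group. Both were higher throughout the *β-catenin Δ(ex3)/+* group, by 1.43 and 1.37 on the log2 scale.

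*H2-T23* encodes Qa-1, which shows signal peptides of other class I molecules to NK receptors, and went the other way from most of its relatives. *H2-T23* had 117, 108 and 117 FPKM in the WT and 99.6, 93.1 and 93.5 FPKM in the *β-catenin Δ(ex3)/+* group, a log2 fold change of -0.25 (SE 0.0475, adjusted p = 0.00503 by limma). Every WT liver was above every *β-catenin Δ(ex3)/+* liver, at a difference well under 2-fold. *H2-Q2* had 0.763, 0.44002 and 0.997 FPKM in the WT and 0.332, 0.335 and 0.279 FPKM in the *β-catenin Δ(ex3)/+* group. *H2-Q1* had 1.97, 2.83 and 1.61 FPKM in the WT and 3.05, 7.38 and 3.32 FPKM in the *β-catenin Δ(ex3)/+* group. The values of *H2-Q2* were low and uneven (log2 fold change -0.39, SE 0.126, adjusted p = 0.0407 by limma), and *H2-Q1* missed both thresholds (log2 fold change 0.77, SE 0.309, adjusted p = 0.0768 by limma), though its groups did not overlap. Most of its spread was in *β-catenin Δ(ex3)/+* replicate 2, without which its log2 fold change was 0.44.

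Heavy chain genes share much of their sequence, which limits what the level of each can say. The share of a member's longest protein-coding transcript that lies in exact stretches of at least 75 bases also present in a transcript of another gene was 67.01% for *H2-T22*, 52.7% for *H2-Q6*, 47.6% for *H2-Q7*, 32.5% for *H2-T23* and 31.3% for *H2-Q1*. It was lower for *H2-D1* (13.7%), *H2-Q10* (11.9%) and *H2-K1* (10.6%). Outside the heavy chains *Oas1a* shared 69.3% with *Oas1g*, *Ifit3* shared 69.1% with *Ifit3b*, and *H2-DMb1* shared 33.9% with *H2-DMb2*. Fragments can be split between such copies, so the levels of these genes are uncertain. Of the 56 members 32 had no such stretch, and without the 10 heavy chain genes 41 members were higher past both thresholds.

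*B2m* (ENSMUSG00000060802, chr2:122147686-122153083) encodes the light chain of every class I molecule and was the most abundant member. *B2m* had 1067, 1096 and 1067 FPKM in the WT and 2325, 2471 and 2452 FPKM in the *β-catenin Δ(ex3)/+* group, a log2 fold change of 1.16 (SE 0.0309, adjusted p = 1.17e-06 by limma). The groups lay far apart relative to their spread, but the change was just under 2-fold after median-ratio scaling (0.97). In a comparison chosen after the values were seen, the summed heavy chains stood to *B2m* at 0.523, 0.492 and 0.503 in the WT and 0.656, 0.614 and 0.617 in the *β-catenin Δ(ex3)/+* group, so the heavy chain transcripts differed more than the light chain. *Nlrc5*, the transactivator of class I promoters, had 0.425, 0.5403 and 0.401 FPKM in the WT and 3.44, 3.26 and 3.31 FPKM in the *β-catenin Δ(ex3)/+* group, a log2 fold change of 1.58 (SE 0.0626, adjusted p = 6.4e-06 by limma). *Tap1* and *Tap2* form the pump that carries peptides into the endoplasmic reticulum. *Tap1* had 1.81, 1.83 and 2.56 FPKM in the WT and 6.104, 7.11 and 7.79 FPKM in the *β-catenin Δ(ex3)/+* group. *Tap2* had 6.29, 5.57 and 6.57 FPKM in the WT and 16.4, 15.2 and 15.4 FPKM in the *β-catenin Δ(ex3)/+* group. Both were higher in every liver of the *β-catenin Δ(ex3)/+* group (1.39 and 1.22 on the log2 scale), and *Tap2* was under 2-fold after quantile normalization (0.96). *Tapbp*, tapasin, which tethers class I to the pump, had 18.5, 19.3 and 25.8 FPKM in the WT and 18.4, 19.5 and 19.7 FPKM in the *β-catenin Δ(ex3)/+* group. Its groups overlapped (log2 fold change -0.12, SE 0.125, adjusted p = 0.444 by limma), and without WT replicate 3, its highest liver, the log2 fold change was 0.02.

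Immunoproteasome subunits replace the 3 catalytic subunits of the standard proteasome. *Psmb8* had 6.89, 7.87 and 7.25 FPKM in the WT and 23.2, 21.3 and 24.6 FPKM in the *β-catenin Δ(ex3)/+* group. *Psmb9* had 3.66, 5.22 and 5.15 FPKM in the WT and 10.8, 10.2 and 17.2 FPKM in the *β-catenin Δ(ex3)/+* group. *Psmb10* had 20.1, 15.1 and 18.7 FPKM in the WT and 34.6, 38.9 and 36.4 FPKM in the *β-catenin Δ(ex3)/+* group. In each case all *β-catenin Δ(ex3)/+* livers were above all WT livers, with replicate 3 the highest for *Psmb9*. *Psmb8* and *Psmb9* passed both thresholds, at 1.53 (SE 0.0721, adjusted p = 1.33e-05 by limma) and 1.25 (SE 0.219, adjusted p = 0.00377 by limma), while *Psmb10*, the most abundant, lay just under the fold threshold (log2 fold change 0.999, limma adjusted p = 0.000479). It passed both without WT replicate 1 or 3, without *β-catenin Δ(ex3)/+* replicate 1 or 3, and at a pseudocount of 0.1, with values from 1.003 to 1.08. Of 14 constitutive core subunits 0 passed both thresholds in either direction by limma, 9 were higher at any fold change, and their median log2 fold change of 0.24 became 0.05 with median ratios and, turned in direction, -0.05 with quantiles. Set against the subunit it replaces, an arrangement chosen after the values were seen, *Psmb8* stood to *Psmb5* at 0.107, 0.122 and 0.105 in the WT and 0.206, 0.187 and 0.214 in the *β-catenin Δ(ex3)/+* group. *Psmb9* stood to *Psmb6* at 0.0632, 0.09497 and 0.087002 in the WT and 0.177, 0.167 and 0.275 in the *β-catenin Δ(ex3)/+* group. *Psmb10* stood to *Psmb7* at 0.753, 0.519 and 0.694 in the WT and 1.08, 1.32 and 1.15 in the *β-catenin Δ(ex3)/+* group. For each pair every *β-catenin Δ(ex3)/+* liver was above every WT liver.

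Beyond the members, 2 of 12 genes for the loading complex and peptide trimming were higher past both thresholds and 0 lower by limma, with a median log2 fold change of 0.75. *Calr*, the chaperone calreticulin, had 169, 170.04 and 176 FPKM in the WT and 502, 495 and 499.6 FPKM in the *β-catenin Δ(ex3)/+* group, a log2 fold change of 1.53 (SE 0.0275, adjusted p = 2.31e-07 by limma). *Tapbpl*, the peptide editor TAPBPR, had 7.28, 7.34 and 8.25 FPKM in the WT and 17.5, 16.4 and 16.6 FPKM in the *β-catenin Δ(ex3)/+* group (log2 fold change 1.05, SE 0.0604, adjusted p = 3.08e-05 by limma) and was under 2-fold with either scaling (0.87 and 0.77). Of 10 tested further class I and class I-like genes, with a median log2 fold change of 0.63, 3 were higher, *H2-T24*, *H2-Q5* and *H2-T10*, with log2 fold changes of 2.11, 2.02 and 1.92. *H2-T24* had 0.589, 0.328 and 0.626 FPKM in the WT and 5.57, 5.51 and 5.49 FPKM in the *β-catenin Δ(ex3)/+* group. *H2-Q5* had 1.05, 0.942 and 1.23 FPKM in the WT and 7.73, 7.59 and 6.99 FPKM in the *β-catenin Δ(ex3)/+* group. *H2-T10* had 0.585, 0.789 and 1.48 FPKM in the WT and 5.75, 6.32 and 6.64 FPKM in the *β-catenin Δ(ex3)/+* group. The groups overlapped for none of the 3, and 57.1% of the *H2-T22* transcript lies in stretches shared with *H2-T10*.

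MHC class II members were higher for 6 of 7, with a median log2 fold change of 2.30 over the 7, and their summed level was 40.4, 41.03 and 42.4 FPKM in the WT and 238, 251 and 252 FPKM in the *β-catenin Δ(ex3)/+* group, a ratio of 5.99. *Cd74* (ENSMUSG00000024610, chr18:60803848-60812646), the invariant chain that blocks the groove until a peptide is loaded, was the most abundant and had 20.9, 24.2 and 21.3 FPKM in the WT and 131, 132 and 142 FPKM in the *β-catenin Δ(ex3)/+* group. Each liver of the *β-catenin Δ(ex3)/+* group was above each WT liver for *Cd74*. *H2-Aa* had 4.39, 3.899 and 4.52 FPKM in the WT and 28.5, 32.4 and 29.4 FPKM in the *β-catenin Δ(ex3)/+* group. *H2-Ab1* had 7.04, 5.57 and 7.43 FPKM in the WT and 38.3, 46.6 and 39.1 FPKM in the *β-catenin Δ(ex3)/+* group. *H2-Eb1* had 4.101, 4.099 and 5.41 FPKM in the WT and 25.4, 26.6 and 26.1 FPKM in the *β-catenin Δ(ex3)/+* group. Transcripts of these class II chain genes were higher in every liver of the *β-catenin Δ(ex3)/+* group, and the molecules themselves were not measured. Their log2 fold changes were 2.56 (SE 0.0719, adjusted p = 1.46e-06 by limma), 2.46 (SE 0.121, adjusted p = 1.53e-05 by limma) and 2.30 (SE 0.0987, adjusted p = 9.03e-06 by limma), against 2.56 (SE 0.0678, adjusted p = 1.16e-06 by limma) for *Cd74*. *H2-DMa* and *H2-DMb1* encode H2-M, which exchanges peptides on class II. *H2-DMa* had 1.87, 1.53 and 1.68 FPKM in the WT and 5.69, 5.57 and 6.58 FPKM in the *β-catenin Δ(ex3)/+* group. *H2-DMb1* had 1.99, 1.604 and 1.91 FPKM in the WT and 8.62, 8.29 and 8.75 FPKM in the *β-catenin Δ(ex3)/+* group. Neither gene's groups overlapped, and the log2 fold changes were 1.36 and 1.75. *Ciita*, the master regulator of class II, was too low to be tested and had 0.1104, 0.08501 and 0.165 FPKM in the WT and 0.303, 0.201 and 0.324 FPKM in the *β-catenin Δ(ex3)/+* group. Of 9 tested further class II and co-stimulation genes, with a median log2 fold change of 0.41, *Ctss*, the protease that trims the invariant chain, was higher and *Ctsl*, a relative, lower. *Ctss* had 25.3, 26.3 and 26.6 FPKM in the WT and 110.03, 111 and 111 FPKM in the *β-catenin Δ(ex3)/+* group, a log2 fold change of 2.04 (SE 0.0342, adjusted p = 1.77e-07 by limma). *Ctsl* had 64.9, 70.3 and 55.2 FPKM in the WT and 31.99, 29.6 and 30.2 FPKM in the *β-catenin Δ(ex3)/+* group, a log2 fold change of -1.02 (SE 0.092003, adjusted p = 0.000212 by limma) that was -0.95, under 2-fold, without WT replicate 2.

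Markers of the cells that make class II also differed between the groups. Of 10 tested Kupffer cell markers 7 were higher and 1, *Marco*, lower past both thresholds, and the list, led by *C1qa*, summed to 409, 393 and 414 FPKM in the WT and 999.8, 988 and 996 FPKM in the *β-catenin Δ(ex3)/+* group, a ratio of 2.45 where that of class II was 5.99. With median ratios and with quantiles 6 and 5 of the 10 were higher past both thresholds. Dendritic cell markers, led by *Clec9a*, had 0 of 3 tested genes past both thresholds by limma and 1 at an adjusted p under 0.05, and summed to 2.696, 2.79 and 2.43 FPKM in the WT and 3.58, 3.04 and 3.01 FPKM in the *β-catenin Δ(ex3)/+* group. B cell markers went the other way, with 4 of 5 tested lower and 0 higher by limma, and summed to 52.3, 52.2 and 51.04 FPKM in the WT and 8.86, 7.12 and 7.92 FPKM in the *β-catenin Δ(ex3)/+* group, with *Ighm* the most abundant. Of 5 tested monocyte markers 1 was higher and 1 lower, and the list, led by *Lyz2*, summed to 72.3, 76.8 and 71.9 FPKM in the WT and 81.8, 82.7 and 76.9 FPKM in the *β-catenin Δ(ex3)/+* group. The pan-leukocyte gene *Ptprc* had 0.632, 0.701 and 0.675 FPKM in the WT and 1.603, 0.575 and 0.601 FPKM in the *β-catenin Δ(ex3)/+* group, with overlapping groups. The part of these cells in the level of class II or of any other member was not tested.

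Lists for further cell types were read in the same way. T cell markers, led by *Trac*, had 1 of 6 tested genes higher and summed to 4.58, 4.83 and 3.22 FPKM in the WT and 9.54, 10.1 and 9.202 FPKM in the *β-catenin Δ(ex3)/+* group. NK cell markers, led by *Gzma*, had 0 of 4 past both thresholds by limma and summed to 12.6, 17.5 and 15.5 FPKM in the WT and 17.9, 18.02 and 16.7 FPKM in the *β-catenin Δ(ex3)/+* group. Plasma cell markers, led by *Igkc*, had *Igkc*, *Jchain* and *Igha* higher and *Mzb1* lower, where all but *Igkc* reached the mean of 0.5 FPKM only through the group in which they were high, summed to 25.6, 27.9 and 25.01 FPKM in the WT and 92.7, 98.5 and 102 FPKM in the *β-catenin Δ(ex3)/+* group, and included *Tnfrsf17* at 0 in all livers. All 7 neutrophil markers, led by *S100a9*, were lower, with sums of 339, 365 and 353 FPKM in the WT and 30.6, 30.9 and 30.03 FPKM in the *β-catenin Δ(ex3)/+* group. Of the B cell, neutrophil and erythroid markers called lower, 1, 2 and 1 in that order reached the mean of 0.5 FPKM only through the WT livers. Erythroid markers, led by *Hba-a2*, were lower for 4 of 6 and summed to 3600.3, 3303 and 3645 FPKM in the WT and 1871, 1833 and 1809 FPKM in the *β-catenin Δ(ex3)/+* group. Endothelial markers were lower for 2 of 8, stellate markers for 3 of 6 and cholangiocyte markers for 1 of 4, with 0 higher by limma in each. With median ratios 2, 5 and 1 were lower in that order, and with quantiles 3, 5 and 1. *Clec4g*, *Dcn* and *Spp1* were the most abundant genes of these lists. The endothelial list summed to 97.01, 97.8 and 98.5 FPKM in the WT and 65.5, 64.3 and 66.8 FPKM in the *β-catenin Δ(ex3)/+* group. For the stellate list the sums were 53.7, 55.4 and 55.7 FPKM in the WT and 21.1, 20.6 and 23.1 FPKM in the *β-catenin Δ(ex3)/+* group, and for the cholangiocyte list 43.1, 41.6 and 39.6 FPKM in the WT and 19.1, 18.5 and 19.3 FPKM in the *β-catenin Δ(ex3)/+* group. Of the 7 hepatocyte markers, led by *Alb*, *Hnf4a* was higher as deposited but not past both thresholds with either scaling, *Apoa1* and *Ttr* were lower, and the list summed to 75378, 76073 and 72634 FPKM in the WT and 39033, 39258 and 38974 FPKM in the *β-catenin Δ(ex3)/+* group. The part of these differences in the module was not tested.

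**Figure D3:**
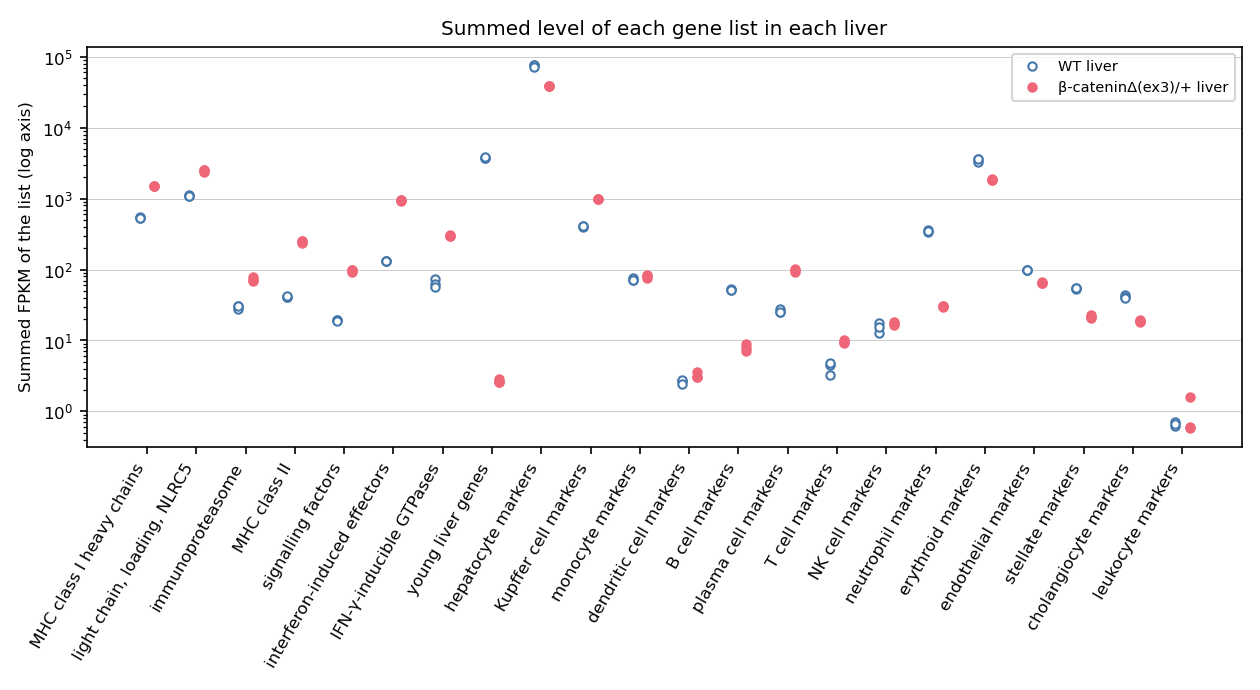
Summed FPKM of each role of the module, of the genes of the young liver and of each cell marker list in each liver, on a log axis. Open points are WT and filled points *β-catenin Δ(ex3)/+* livers, 3 each. All 7 roles are higher in the filled points, as are Kupffer cell, monocyte, dendritic cell, plasma cell and T cell markers. Young liver, hepatocyte, B cell, neutrophil, erythroid, endothelial, stellate and cholangiocyte genes are lower. NK cell and leukocyte markers overlap.

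Interferon-induced genes outside the module went the same way for the most part. Of 50 further interferon-induced genes 33 were higher past both thresholds and 0 lower by limma, with a median log2 fold change of 1.25. Of the 33, 3 reached the mean of 0.5 FPKM only through the *β-catenin Δ(ex3)/+* livers. With either scaling 29 were higher, and with quantiles 1, *Ifitm1*, was lower. *Apol9a* had 0.657, 0.624 and 0.651 FPKM in the WT and 26.5, 26.8 and 27.5 FPKM in the *β-catenin Δ(ex3)/+* group. *Apol9b*, its near copy, had 6.805, 7.26 and 1.93 FPKM in the WT and 26.7, 36.2 and 42.3 FPKM in the *β-catenin Δ(ex3)/+* group. The groups did not overlap for either, with WT replicate 3 the lowest for *Apol9b*. *Cxcl9*, a chemokine for T cells typical of interferon-γ, had 1.997, 1.605 and 2.02 FPKM in the WT and 16.8, 17.7 and 17.5 FPKM in the *β-catenin Δ(ex3)/+* group. *Ly6e* had 32.8, 33.6 and 31.3 FPKM in the WT and 152, 234 and 208 FPKM in the *β-catenin Δ(ex3)/+* group. Their log2 fold changes were 4.09, 2.63, 2.68 and 2.55. *Ifitm1*, of the family that blocks viral entry, had 13.2, 14.95 and 12.8 FPKM in the WT and 6.33, 8.12 and 7.54 FPKM in the *β-catenin Δ(ex3)/+* group, a log2 fold change of -0.82 (SE 0.101, adjusted p = 0.000856 by limma) that was -1.08 with quantiles. *Ifitm2* had 349, 319 and 361 FPKM in the WT and 348, 344 and 334 FPKM in the *β-catenin Δ(ex3)/+* group, with overlapping groups, and *Ifitm3* was higher (1.71 on the log2 scale). These 3 were named after their values were seen. Of 14 further interferon-γ-inducible GTPases 8 were higher, *Gbp2b* tested only through the *β-catenin Δ(ex3)/+* livers, and 1 lower, with a median log2 fold change of 1.18. *Gbp10* had 0.8802, 1.03 and 0.811 FPKM in the WT and 28.3, 26.9 and 29.2 FPKM in the *β-catenin Δ(ex3)/+* group. *Gbp2b* had 0.127, 0.0577 and 0.0724 FPKM in the WT and 8.32, 10.3 and 9.25 FPKM in the *β-catenin Δ(ex3)/+* group. *Tgtp2* had 3.5997, 2.303 and 3.99 FPKM in the WT and 20.6, 22.2 and 22.3 FPKM in the *β-catenin Δ(ex3)/+* group. Each liver of the *β-catenin Δ(ex3)/+* group was above each WT liver, *Gbp10* changed by 3.94 (SE 0.0636, adjusted p = 1.63e-07 by limma), and *Gbp2b* and *Tgtp2* by 3.24 and 2.42. *Tgtp1* had 5.27, 6.22 and 6.04 FPKM in the WT and 37.99, 31.5 and 33.1 FPKM in the *β-catenin Δ(ex3)/+* group, a log2 fold change of 2.36 (SE 0.0898, adjusted p = 5.26e-06 by limma). *Gbp11*, named after its values were seen, was the gene that was lower, with 10.4, 10.6 and 10.6 FPKM in the WT and 2.68, 3.53 and 4.37 FPKM in the *β-catenin Δ(ex3)/+* group (log2 fold change -1.37, SE 0.135, adjusted p = 0.000325 by limma).

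Of 16 tested genes for the sensing of nucleic acids 5 were higher past both thresholds and 0 lower by limma, 15 were higher at any fold change, and the median log2 fold change was 0.74. With either scaling 3 of the 16 were higher past both thresholds, without *Irf5* and *Ikbke*. *Dhx58*, which encodes LGP2, a relative of RIG-I, had 0.935, 1.24 and 1.19 FPKM in the WT and 10.7, 11.6 and 9.77 FPKM in the *β-catenin Δ(ex3)/+* group, a log2 fold change of 2.46 (SE 0.0883, adjusted p = 4.22e-06 by limma). *Unc93b1*, which brings Toll-like receptors to endosomes, had 10.9, 9.13 and 11.6 FPKM in the WT and 29.3, 29.7 and 28.5 FPKM in the *β-catenin Δ(ex3)/+* group. *Zbp1*, a sensor of Z-form nucleic acids, had 4.199, 3.99 and 3.26 FPKM in the WT and 9.26, 10.2 and 13.5 FPKM in the *β-catenin Δ(ex3)/+* group. Both were higher throughout the *β-catenin Δ(ex3)/+* group. *Irf5* had 2.97, 3.18 and 2.73 FPKM in the WT and 9.999, 4.44 and 9.98 FPKM in the *β-catenin Δ(ex3)/+* group, with *β-catenin Δ(ex3)/+* replicate 2 the lowest of its group. The log2 fold changes were 1.40 for *Unc93b1*, 1.31 for *Zbp1* and 1.14 (SE 0.283, adjusted p = 0.0157 by limma) for *Irf5*. The last was under 2-fold after both scalings (0.98 and 0.93) and without *β-catenin Δ(ex3)/+* replicate 1 or 3 (0.97 for each). *Ikbke*, a kinase that acts on IRF factors and named after its values were seen, had 0.692, 1.55 and 1.41 FPKM in the WT and 5.13, 2.73 and 2.87 FPKM in the *β-catenin Δ(ex3)/+* group. Its groups did not overlap, and its log2 fold change of 1.03 (SE 0.247, adjusted p = 0.0135 by limma) was 0.90 with either scaling, 0.85 without WT replicate 1 and 0.80 without *β-catenin Δ(ex3)/+* replicate 1.

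Members share position as well as function. In a comparison chosen after the values were seen, 20 of the 56 genes lie on chromosome 17, and 16 of these were higher past both thresholds. They span chr17:33915899-36042705 in the coordinates of the table, from *Tapbp* to *H2-T22*, a part of the H2 complex, other genes of which, such as *H2-T10*, lie beyond it. Between these ends are 163 other genes, of which 88 were tested, with a median log2 fold change of 0.30. Of the 88, 6 were higher and 3 lower past both thresholds, where 8.17% and 4.52% of all genes tested were. *H2-T24* and *H2-Q5* were among the 6, with *C4a*, *Hspa1a*, *Hspa1b* and *Cyp21a2-ps*, named after their values were seen. *Hspa1a* reached the mean of 0.5 FPKM only through the *β-catenin Δ(ex3)/+* livers. *Sapcd1*, among the 3 lower and also named after its values were seen, reached it only through the WT livers.

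Promoters of 43 of the 56 members were found in the RefSeq promoter table for build GRCm38.p6, which gives 250 bases before and 50 after each start. Searched on both strands for the core of the interferon-stimulated response element, GAAANNGAAA, where N is any base, 17 of the 43 members held it (39.5%), against 3.99% of 27025 genes with a promoter. The core of the gamma-activated sequence, TTCNNNGAA, which reads the same on both strands, was in 9 of 43 (20.9%), against 9.55%. By role the element core was in 8 of 14 effectors and 5 of 5 interferon-γ-inducible GTPases, in 2 of 9 class I heavy chains, in 1 of 5 signalling factors, in 1 of 3 genes of the light chain and loading, and in 0 of 4 class II and 0 of 3 immunoproteasome genes. A match is a run of letters, and binding was not measured here. Since many members were listed for being interferon-induced, these shares describe the choice of genes and not a difference between the livers. The 7 members that were higher past both thresholds and held at least 2 matches to GAAANNGAAA are printed here, 5′ to 3′ along the gene, with each match to either motif in capitals. Neighbouring matches overlap in *Isg15*, *Bst2*, *Gbp3*, *Irgm1* and *Oas1a*, where they make repeats of GAAA at a spacing of 6 bases.
*Isg15*, chr4:156200769-156201068, strand minus: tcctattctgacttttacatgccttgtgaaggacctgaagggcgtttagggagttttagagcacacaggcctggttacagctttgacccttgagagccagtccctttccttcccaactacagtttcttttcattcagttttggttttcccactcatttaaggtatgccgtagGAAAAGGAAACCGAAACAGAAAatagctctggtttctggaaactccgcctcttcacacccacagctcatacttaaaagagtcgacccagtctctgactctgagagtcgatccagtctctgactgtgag
*Bst2*, chr8:71537423-71537722, strand minus: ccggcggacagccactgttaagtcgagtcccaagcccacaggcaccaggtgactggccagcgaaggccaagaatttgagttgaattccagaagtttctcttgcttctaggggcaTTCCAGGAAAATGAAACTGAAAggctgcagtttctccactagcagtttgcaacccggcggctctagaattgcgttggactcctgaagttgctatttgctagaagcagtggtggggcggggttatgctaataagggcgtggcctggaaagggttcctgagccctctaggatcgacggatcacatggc
*Oas1a*, chr5:120907476-120907775, strand minus: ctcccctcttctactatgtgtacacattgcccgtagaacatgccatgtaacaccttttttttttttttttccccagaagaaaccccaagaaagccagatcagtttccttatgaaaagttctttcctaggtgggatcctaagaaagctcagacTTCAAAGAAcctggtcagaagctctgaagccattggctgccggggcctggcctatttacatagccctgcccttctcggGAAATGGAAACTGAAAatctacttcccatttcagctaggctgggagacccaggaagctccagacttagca
*Ifit1*, chr19:34640639-34640938, strand plus: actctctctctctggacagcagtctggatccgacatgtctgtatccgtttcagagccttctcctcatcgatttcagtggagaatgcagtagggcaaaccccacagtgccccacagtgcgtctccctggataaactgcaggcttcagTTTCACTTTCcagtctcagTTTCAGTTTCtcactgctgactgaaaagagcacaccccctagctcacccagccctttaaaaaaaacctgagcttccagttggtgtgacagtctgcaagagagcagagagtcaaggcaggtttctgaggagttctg
*Ifit3*, chr19:34583279-34583578, strand plus: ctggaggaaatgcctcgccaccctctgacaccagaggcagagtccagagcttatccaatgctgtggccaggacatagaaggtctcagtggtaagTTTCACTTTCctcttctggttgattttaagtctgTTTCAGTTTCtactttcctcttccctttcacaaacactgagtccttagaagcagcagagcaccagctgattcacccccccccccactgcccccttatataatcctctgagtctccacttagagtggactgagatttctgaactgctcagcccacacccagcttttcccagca
*Gbp3*, chr3:142559794-142560093, strand plus: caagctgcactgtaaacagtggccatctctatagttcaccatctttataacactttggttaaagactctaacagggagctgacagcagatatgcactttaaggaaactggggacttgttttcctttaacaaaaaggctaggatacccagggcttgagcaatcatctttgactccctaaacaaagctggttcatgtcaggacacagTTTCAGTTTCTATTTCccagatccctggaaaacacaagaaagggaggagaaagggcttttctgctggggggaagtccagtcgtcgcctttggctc
*Irgm1*, chr11:48871371-48871670, strand minus: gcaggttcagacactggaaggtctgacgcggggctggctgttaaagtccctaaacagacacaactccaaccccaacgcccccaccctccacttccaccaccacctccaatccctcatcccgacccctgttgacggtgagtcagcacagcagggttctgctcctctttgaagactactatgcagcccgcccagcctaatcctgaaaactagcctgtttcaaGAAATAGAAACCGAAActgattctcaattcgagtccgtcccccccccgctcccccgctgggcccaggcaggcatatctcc
The matches begin 78, 72 and 66 bases before the start in *Isg15*, 130 and 124 before it in *Bst2*, and 20 and 14 before it in *Oas1a*. In *Ifit1* they begin 104 and 85 bases before the start and in *Ifit3* 156 and 122 before it, on the opposite strand in both. In *Gbp3* they lie 45 and 39 bases before the start on the opposite strand, and in *Irgm1* 30 and 24 before it. *Bst2* and *Oas1a* also hold a match to TTCNNNGAA, which begins 136 and 98 bases before the start, and that of *Bst2* overlaps its first element core.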

How the data were processed

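FPKM per gene and liver, as deposited by the authors, were used for 3 WT and 3 *β-catenin Δ(ex3)/+* livers, grouped by the sample labels, with 0 columns left unused. The submitters' processing notes name cutadapt 1.9, HISAT2 2.0.4, StringTie 1.3.4d, DESeq2 and edgeR. The genome build is not given in the sources used here; 28911 of 31950 genes match GENCODE M21 (GRCm38) in start and end. FPKM keep no counts, so DESeq2, which the study used, was not run. In low values of single-exon genes, 25.6% to 35.3% per liver lay within 0.02 of a whole step, against 4% by chance. The steps put the depth of WT replicates 2 and 3 at 0.995 and 0.990 and that of *β-catenin Δ(ex3)/+* replicates 1 to 3 at 0.774, 0.686 and 0.790 of WT replicate 1, as estimates, with absolute depth unknown.

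On log2(FPKM + 1) of the 13243 genes with a mean of at least 0.5 FPKM, 1 model was fitted with limma 3.58.1 in R 4.3.3 (eBayes with an intensity trend), with Benjamini-Hochberg adjustment over all genes tested. Called genes had an adjusted p under 0.05 and a fold change of at least 2, the study's thresholds. The fit was tested on simulated data. Other steps ran in Python 3.11.15 with pandas 2.3.3, numpy 2.4.6 and matplotlib 3.10.9. The members and the gene lists were chosen with earlier results of these data known. Values of each liver are given for members past both thresholds and the most abundant member of each role, and up to 4 genes with the largest change past both thresholds are named from each pathway list. Alternatives were scaling by median ratios, quantile normalization, a pseudocount of 0.1, no filter, a filter at a mean of 1 FPKM, eBayes with no trend, blocking on replicate number, other thresholds, and leaving out each liver or the class I heavy chains. The comparison of class I protein sequences was not made, and transcripts of GENCODE M21 were compared in its place. Strand use in counting is not given in the sources used here, and 21 members share exon bases with another gene.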

Additional observations from a re-analysis of the deposited data

How the results depend on the processing

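The number of members higher past both thresholds was 48, and 49 at a pseudocount of 0.1, 48 without a filter, at a mean of at least 1 FPKM and without a trend, 46 after median-ratio scaling, 45 after quantile normalization, 34 at an absolute log2 fold change of at least 1.5 and 41 without the class I heavy chains. The same 48 genes were called in each fit that left out 1 liver, with *Psmb10* added in 4 of the 6, so the count ranged from 48 to 49. Median-ratio scaling lost *B2m* and *Ddx58*, and quantile normalization *Ddx58*, *Irf9* and *Tap2*, each to a fold change just under 2 on the log2(FPKM + 1) scale. The number lower was 0 in all of these, also when each liver was left out (0 to 0), and 2 at any fold change, where *H2-T23* and *H2-Q2* passed and 51 members were higher.

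Over 1089 comparisons of single genes with an alternative, 1066 kept their direction and side of the thresholds, 16 no longer passed, 6 newly passed and 1 reversed. Of the 6, 5 were of *Psmb10* and the other of *Ifitm1*. Among all genes a pseudocount of 0.1 moved the calls from 1082 higher and 598 lower to 1706 and 999. The reversal was that of *Tapbp*, -0.12 with all livers, which ranged from -0.21 to 0.022 as each liver was left out, with 0.022 without WT replicate 3. The cause was not tested. When replicate number was fitted as a block, which pairs livers by it, 48 members were higher and 0 lower, and no call among the members changed. The labels name no link between livers with the same number. Their deviations from the group means correlated at 0.0268, 0.0213 and -0.00540, and with so few livers these values cannot tell whether a link exists. *Ciita* and other genes at low FPKM cannot be judged, since counts are not known.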
